A study of Mus musculus with 4 samples.

Results

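Ucp2 and Ucp3 are neighbouring genes on mouse chromosome 7, and the open chromatin around them was compared between newborn hearts lacking RXR alpha and RXR beta in cardiomyocytes and wild-type hearts. Members were the called peaks that overlapped either gene body of GRCm38, extended by 50 kb on each side (chr7:100422991-100549629). Peaks sharing 1 bp or more were merged across libraries, which gave 11 regions around these 2 genes out of 53140 regions in the whole data set. ATAC-seq, in which the transposase Tn5 cuts and tags accessible DNA, had been run on nuclei of total hearts of C57BL/6 mice at postnatal day 0. The edKO group (n = 2) carried the cardiomyocyte-specific loss of both receptors, and the WT group (n = 2) carried neither deletion. Each library came from 1 heart. The sources used here give neither the promoter that drove the deletion nor the sex of the animals. Nuclei came from the total heart, so cells other than cardiomyocytes, which keep both receptors under this design, also contributed to the edKO libraries.

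Both genes encode carriers of the inner mitochondrial membrane of the SLC25 family. UCP3 is made mainly in skeletal muscle, heart and brown fat, and its gene is known to respond to fatty acids through PPAR receptors. UCP2 is made in many tissues, including cells of the immune system, and has been described as an exporter of small carbon acids from mitochondria. PPAR receptors bind DNA paired with an RXR receptor, typically at 2 copies of the core motif AGGTCA in direct repeat with 1 base between them. In mouse adipocytes a PPAR-bound enhancer inside Ucp3 has been described as acting on both genes, and its position was not compared with the regions here.

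Ucp3 (chr7:100472991-100486432) and Ucp2 (chr7:100493337-100499629) lie in the same orientation on the plus strand, with Ucp3 upstream. The 250 bases before each annotated start site are shown because the start of each gene differed in which libraries called it. They come from RefSeq on GRCm38.p6 and run 5′ to 3′, with the core motif AGGTCA in capitals for Ucp3 (chr7:100472741-100472990) and the GC box GGGCGG, read on the other strand, in capitals for Ucp2 (chr7:100493108-100493357). The start site used for Ucp2 is position 100493358, which lies inside the outer bound of its gene body.
Ucp3: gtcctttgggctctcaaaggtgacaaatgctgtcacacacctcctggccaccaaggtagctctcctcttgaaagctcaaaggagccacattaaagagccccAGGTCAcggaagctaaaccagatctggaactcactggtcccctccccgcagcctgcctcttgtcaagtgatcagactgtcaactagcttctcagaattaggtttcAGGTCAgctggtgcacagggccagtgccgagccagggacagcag
Ucp2: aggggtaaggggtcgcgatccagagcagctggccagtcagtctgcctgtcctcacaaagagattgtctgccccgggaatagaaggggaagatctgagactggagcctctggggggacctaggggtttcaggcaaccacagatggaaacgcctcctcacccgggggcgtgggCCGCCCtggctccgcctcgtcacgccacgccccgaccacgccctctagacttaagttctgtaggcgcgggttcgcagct

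The Ucp3 stretch held AGGTCA 2 times on the plus strand, starting 149 and 44 bases before the start site. That core motif occurred on either strand in 14.0% of 32851 promoter stretches of this length, and the Ucp2 stretch had none. With up to 2 mismatches allowed in 2 direct copies of AGGTCA separated by 1 base, Ucp3 had a match from 51 to 39 bases before its start, which overlaps the second AGGTCA. Matches with as few mismatches were present in 3.24% of the stretches, whereas the best match for Ucp2 had 4 mismatches. The GC box GGGCGG was found once for Ucp2, on the minus strand, and 32.7% of the stretches held one on either strand. Both stretches held E-boxes (CANNTG), 3 for Ucp3 and 2 for Ucp2, as did 66.2% of the stretches, and 1 E-box of Ucp3 shares 2 bases with its second AGGTCA. Neither stretch held the letters CCAAT (33.8% of all stretches) or TATAAA (12.4%) on either strand. GC content was 54.8% for Ucp3 and 63.6% for Ucp2 (median of all stretches 52.4%), with 3 and 16 CpG pairs. These matches describe letters and do not show that a factor was bound.

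For each peak the authors' lists give the −log10 p and the fold enrichment of its summit over local background within the same library. The pileup at the summit, the count of sequenced pieces that cover it, was recovered from these 2 values. It is given with its exact 95% Poisson interval, which covers counting error only. Lists held 27473 and 27142 peaks in edKO 1 and edKO 2, against 35279 and 38809 peaks in WT 1 and WT 2. The lowest background, which stands for relative depth, was 1.51 and 1.92 in edKO 1 and edKO 2, against 1.81 and 1.80 in WT 1 and WT 2. Among the 10000 strongest peaks the fold enrichment had a median of 10.2 and 7.61 in edKO 1 and edKO 2, against 10.8 and 11.5 in WT 1 and WT 2. The edKO 2 library therefore had the lowest enrichment of the 4. At the lowest background a pileup of 6 sufficed for a call in edKO 1, and 7 in each of the other libraries. A site without a call fell short of that library's threshold and may still have been open.

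The upstream side of Ucp3 held the WT peak with the highest −log10 p and pileup of the 11 regions, although fold enrichment was higher at the Coa4 start, and the values upstream of Ucp3 were low in both edKO hearts. The region lay 7.22 kb upstream of the Ucp3 start (chr7:100465276-100466258, 983 bp), over the last part of C2cd3, a gene for a centriole protein, and over the lncRNA Gm10603. It was called in all 4 libraries. Its −log10 p was 5.57 in edKO 1 and 4.14 in edKO 2, against 69.8 in WT 1 and 86.7 in WT 2. Both edKO values were far below both WT values, and the groups did not overlap. The share of all regions without overlap in raw −log10 p was not counted.

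The pileup at its summit was 11 (5.49 to 19.7) in edKO 1 and 13 (6.92 to 22.2) in edKO 2, against 106 (86.8 to 128) in WT 1 and 121 (100.4 to 145) in WT 2. Counting error therefore did not bridge the groups. Fold enrichment over the local background was 3.82 and 2.81 in edKO 1 and edKO 2, against 9.82 and 11.4 in WT 1 and WT 2. The strongest peak there was also narrower in the edKO libraries, at 253 and 249 bp, against 635 and 954 bp in WT 1 and WT 2. Summits lay 7210 and 7042 bases upstream of the Ucp3 start in edKO 1 and edKO 2, against 7102 and 7035 bases in WT 1 and WT 2, so the edKO summits lay within the span of the WT peaks.

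**Figure D1:**
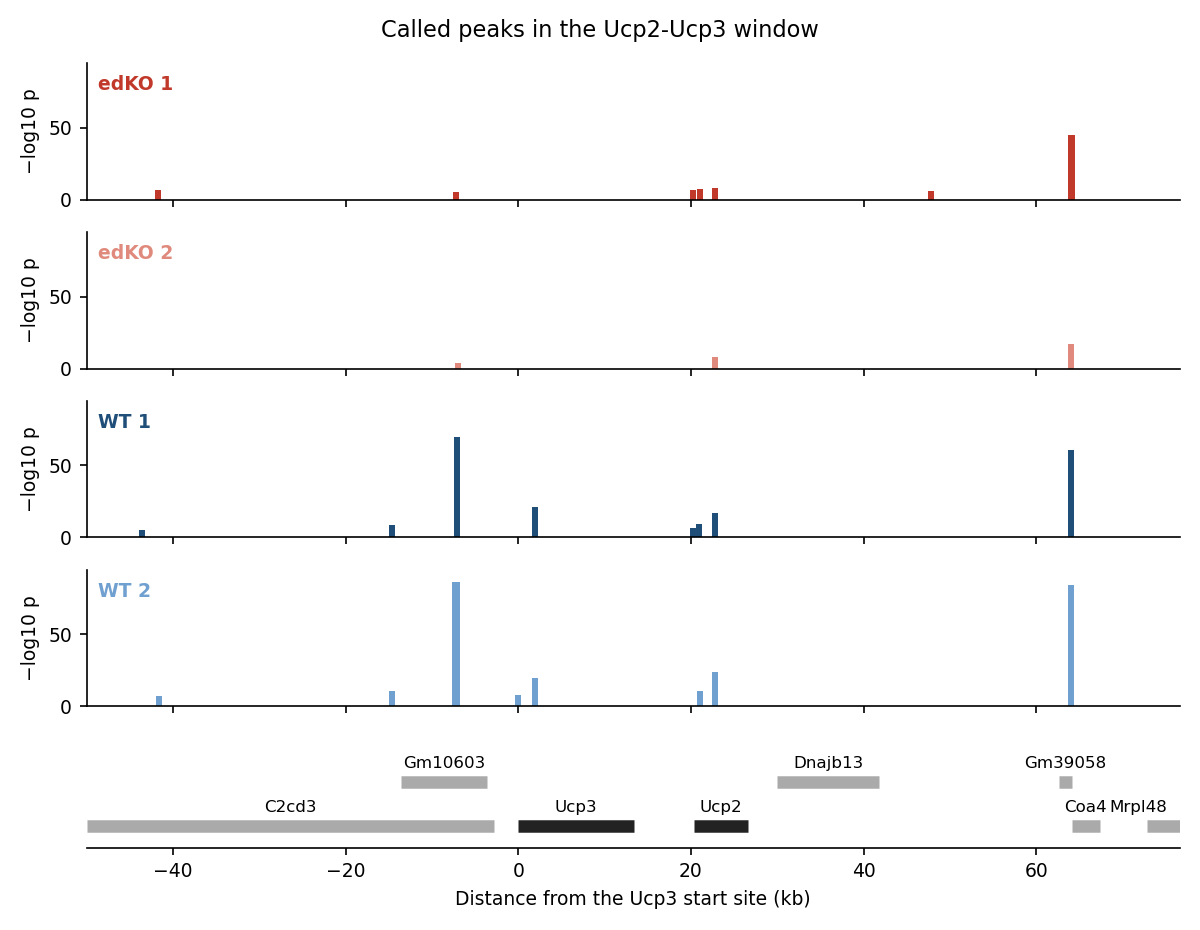
Called peaks around Ucp3 and Ucp2 in edKO 1, edKO 2, WT 1 and WT 2 (top to bottom). The x axis is the distance from the Ucp3 start site in kb, bar height is the authors' −log10 p on the same scale in each panel, bars are drawn at least 0.7 kb wide, and gene bodies are at the bottom; the tall WT bars at 69.8 and 86.7 upstream of Ucp3 stand against edKO bars at 5.57 and 4.14.

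Because −log10 p scales with depth and enrichment, the region was also ranked within each library among the 16568 regions called in all 4 libraries, which are the same regions in each. This ranking was chosen after the values had been seen. The region stood at percentiles 2.55 and 0.314 in edKO 1 and edKO 2, against 81.0 and 85.0 in WT 1 and WT 2. The difference in mean percentile, edKO minus WT, was −81.6 points, the most negative of these 16568 regions, and the next was −68.1. Regions that an edKO heart did not call, among them 5440 WT-only regions in the whole data set, could not enter this ranking. One of those, near Angptl4, had −log10 p of 79.4 and 102.7 in WT 1 and WT 2. The ranking therefore does not single out the largest loss in the data. Over all these regions the median difference was 0.121, and the middle 90% ran from −19.4 to 18.9. Both edKO percentiles lay below both WT percentiles in 19.9% of the regions, so a lack of overlap alone was common. The position as the most negative difference held without each library in turn, and when ranked by fold enrichment the difference was −64.5, the second most negative. The region entered the ranked set through weak edKO calls, at percentiles 12.5 and 1.94 of the edKO 1 and edKO 2 lists. With a minimum −log10 p of 5 it no longer counted as called in all 4 libraries. The same held when peaks had to cover at least 50% of the region.

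**Figure D2:**
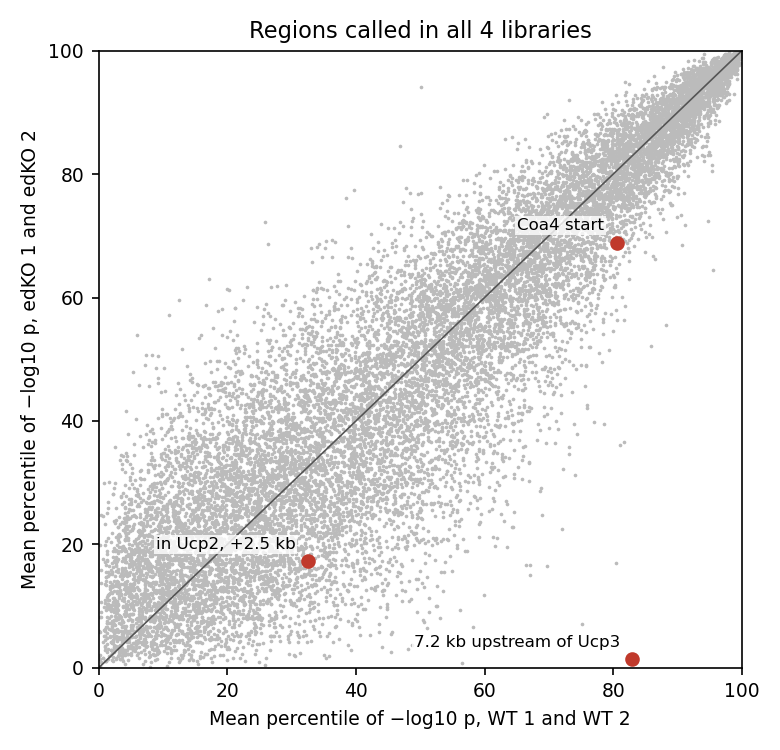
Mean percentile of the authors' −log10 p in edKO 1 and edKO 2 (y axis) against the mean percentile in WT 1 and WT 2 (x axis) for the 16568 regions called in all 4 libraries, as grey points with the line of equality. Red points are the 3 of these regions around Ucp2 and Ucp3; the one upstream of Ucp3 lies at 1.43 in edKO and 83.0 in WT.

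Inside Ucp3 1 region was WT-only, that is, both WT hearts had a call there and neither edKO heart did. It lay 1.93 kb downstream of the start site (chr7:100474740-100475104), and exons and introns were not told apart here. In WT 1 its −log10 p was 21.0 with a pileup of 40 (28.6 to 54.5), and in WT 2 it was 20.0 with a pileup of 35 (24.4 to 48.7). The WT summits lay 1886 and 1918 bases from the start. These values put it at percentiles 68.6 and 67.1 of the WT 1 and WT 2 lists. Of the 3362 regions that both WT hearts called at a mean WT percentile within 5 points of it, 4.31% were WT-only, so most WT regions of like strength were called in at least 1 edKO heart.

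The Ucp3 start site itself carried a peak in WT 2 alone (chr7:100472910-100473109, −log10 p 8.08, pileup 21). It had no call in edKO 1, edKO 2 or WT 1, which gives no difference between groups. Over the Ucp3 body 0 and 0 regions were called in edKO 1 and edKO 2, against 1 and 2 in WT 1 and WT 2 (exact permutation p = 0.333, two-sided, the smallest p that 2 hearts against 2 allow). Of regions within 5 kb of all protein-coding genes, 54% and 52.9% were called in edKO 1 and edKO 2, against 68.2% and 74.5% in WT 1 and WT 2. A second WT-only region lay 14.6 kb upstream of Ucp3 inside C2cd3 (chr7:100458178-100458506), and its −log10 p was 8.86 and 10.5 in WT 1 and WT 2. It was weaker, and of 3148 WT regions of like strength 37.1% were WT-only, so such a pattern is common at this strength.

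**Figure D3:**
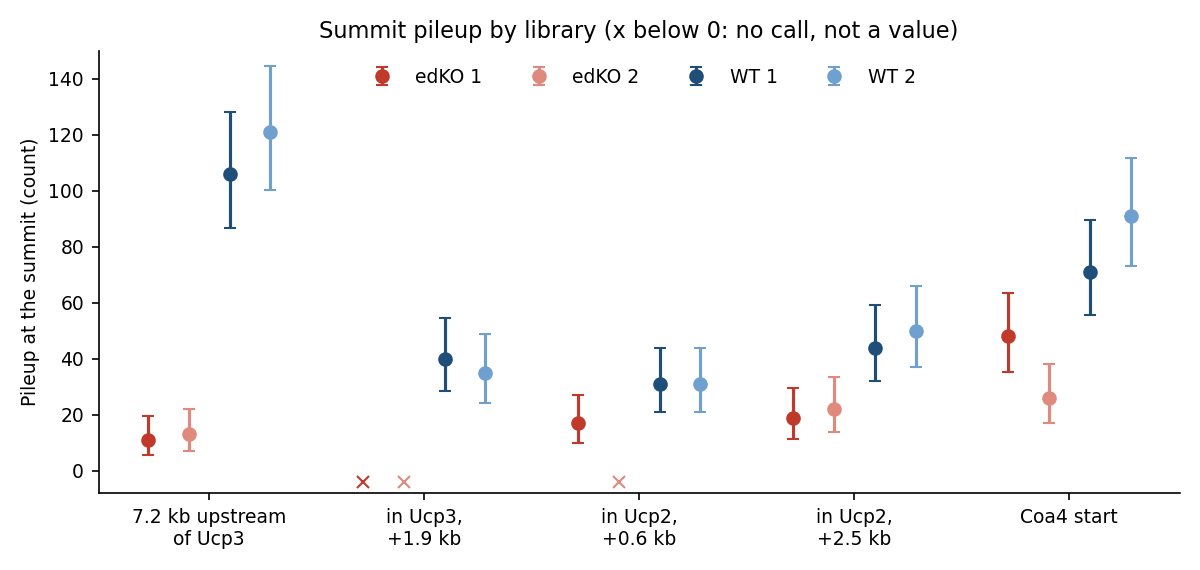
Pileup at the summit (count, y axis) for 5 regions in edKO 1, edKO 2, WT 1 and WT 2 (left to right within each region), with exact 95% Poisson intervals as bars; a cross below 0 marks a library with no call and is not a value. Upstream of Ucp3 the edKO pileups are 11 and 13 against 106 and 121 in WT, while at the Coa4 start they are 48 and 26 against 71 and 91.

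All 3 regions over Ucp2 were called in edKO 1, but only the one farthest from its start in edKO 2. The region 2.47 kb downstream of the Ucp2 start (chr7:100495567-100496088) was called in all 4 libraries. Its −log10 p was 8.39 and 7.77 in edKO 1 and edKO 2, against 17.1 and 23.8 in WT 1 and WT 2. Pileups were 19 (11.4 to 29.7) and 22 (13.8 to 33.3) in edKO 1 and edKO 2, against 44 (32.0 to 59.1) and 50 (37.1 to 65.9) in WT 1 and WT 2. The edKO values were lower and did not overlap the WT values, but the share of all regions with this raw pattern was not counted. Median pileups of the whole lists were also lower, at 19 and 18 in edKO 1 and edKO 2, against 23 and 23 in WT 1 and WT 2. Among regions called in all 4 libraries its percentiles were 13.7 and 20.8 in edKO 1 and edKO 2, against 27.9 and 37.2 in WT 1 and WT 2. This difference of −15.2 points lies within the middle 90% of all regions called in all 4 libraries. In 19.9% of those, both edKO percentiles likewise lay below both WT percentiles.

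By calls alone, the remaining Ucp2 regions did not separate the groups, as edKO 1 called each of them. The one 0.568 kb downstream of the start (chr7:100493679-100494172) was called in edKO 1, WT 1 and WT 2, at −log10 p of 7.67 in edKO 1, against 9.49 and 10.8 in WT 1 and WT 2. Its pileup was 17 (9.90 to 27.2) in edKO 1, against 31 (21.1 to 44.0) in each WT heart. The edKO 1 value was thus below both WT values, with overlapping intervals, and edKO 2 had no call. The one at the start site (chr7:100493025-100493385), which covers the printed Ucp2 stretch, was called in edKO 1 and WT 1, at −log10 p of 6.83 and 6.82. Over the Ucp2 body 3 and 1 regions were called in edKO 1 and edKO 2, against 3 and 2 in WT 1 and WT 2 (exact permutation p = 1, two-sided). Each of the 2 edKO hearts had at least 1 called region in Ucp2 and none in Ucp3. The Ucp3 body held only 2 regions, each defined by WT calls alone, and a difference between the genes was not tested.

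At the far end of the window, the shared start of Coa4, which encodes an assembly factor of cytochrome c oxidase, and the lncRNA Gm39058 was called in every library (chr7:100536736-100537347). Its −log10 p was 44.8 and 17.4 in edKO 1 and edKO 2, against 60.6 and 84.1 in WT 1 and WT 2. Among regions called in all 4 libraries its percentiles were 78.3 and 59.5 in edKO 1 and edKO 2, against 77.0 and 84.2 in WT 1 and WT 2. The edKO 1 percentile lay between the WT values, so the groups overlapped. Dnajb13, the next gene downstream of Ucp2, had no call within 1 kb of its start in any library.

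The other 3 regions were single or split calls. One in C2cd3 was called in WT 1 alone (chr7:100429250-100429449) and another in edKO 1 and WT 2 (chr7:100431151-100431446), while an intergenic one was called in edKO 1 alone (chr7:100520744-100520943). Their −log10 p ran between 5.13 and 6.82. Nearest outside the window, regions in Mrpl48, a gene for a mitochondrial ribosomal protein, were called in edKO 1 alone (chr7:100549885-100550113) and WT 2 alone (chr7:100550418-100550621), at −log10 p of 4.59 and 6.30. On the other side the nearest outside region, also in C2cd3, was WT-only (chr7:100399298-100399719). It was weak, at −log10 p of 6.31 and 11.9 and pileups of 11 and 17 in WT 1 and WT 2. The share of WT-only regions at its strength was not computed.

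In all, 7 and 3 of the 11 regions were called in edKO 1 and edKO 2, against 8 and 8 in WT 1 and WT 2. The mean was 5 ± 2.83 in edKO hearts and 8 ± 0 in WT hearts (SD, n = 2 each; exact permutation p = 0.333, two-sided, the smallest possible). In the whole data set 49.9% and 49.4% of merged regions were called in edKO 1 and edKO 2, against 64.9% and 71.5% in WT 1 and WT 2. Peaks covered 2377 and 1081 bases of the window in edKO 1 and edKO 2, against 3410 and 3186 bases in WT 1 and WT 2, with means of 1729 ± 916 and 3298 ± 158 (SD, n = 2 each; exact permutation p = 0.333). The difference in regions called was −3, but −1 without edKO 2, −5 without edKO 1 and −1 with lists of equal length. With equal lengths 7 and 3 regions were called in edKO 1 and edKO 2, against 6 and 6 in WT 1 and WT 2. There edKO 1 was above both WT hearts, and only edKO 2 was below them. The difference in bases was −1569, and −921 without edKO 2. As a share of all bases covered by each list, the window held 0.0221% and 0.00983% in edKO 1 and edKO 2, against 0.0231% and 0.0201% in WT 1 and WT 2, and edKO 1 lay between the WT values (exact permutation p = 0.667, two-sided).

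**Figure D4:**
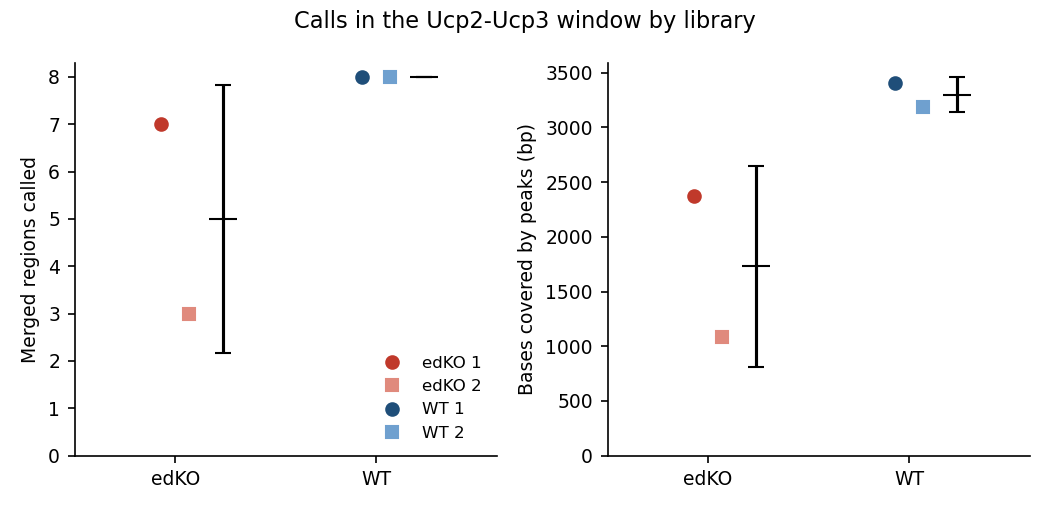
Merged regions called (left) and bases covered by peaks (right, bp) around Ucp2 and Ucp3, with edKO hearts left of WT hearts; circles are replicate 1, squares are replicate 2, and the bar beside them is the mean ± SD (n = 2). edKO 2, with 3 regions and 1081 bases, is lowest in both panels.

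Both WT-only regions lay nearer to the Ucp3 start than to the Ucp2 start. Of regions nearer to the Ucp3 start, 2 and 1 were called in edKO 1 and edKO 2, against 4 and 5 in WT 1 and WT 2 (exact permutation p = 0.333, two-sided). Of those nearer to the Ucp2 start, 5 and 2 were called in edKO 1 and edKO 2, against 4 and 3 in WT 1 and WT 2, with equal means (exact permutation p = 1, two-sided). In the whole data set 49.9% and 49.4% of merged regions were called in edKO 1 and edKO 2, against 64.9% and 71.5% in WT 1 and WT 2. Several regions on the Ucp3 side, among them the 2 WT-only ones, were defined by WT calls alone. Fewer edKO calls there therefore follow in part from how regions were defined. The difference between both sides was not tested. Both WT hearts called 6 of the regions, and 2 of these were WT-only (33.3%), against 19.4% in the whole data set. Without WT 2, peaks were merged anew and only WT 1 had to call. WT 1 then called 9 regions, as its 2 peaks in the region 7.22 kb upstream of Ucp3 were no longer joined. Of these 9 regions 4 were WT-only, and no background was computed for this setting. Of the 3 regions called in both edKO hearts 0 were edKO-only (background 1.35%), 3 of all 11 were called in every library (31.2%), and 3 of 11 in 1 library (39.3%). Without edKO 2 the intergenic region called in edKO 1 alone counted as edKO-only. These counts are too small to be set apart from the background. The median protein-coding gene, extended in the same way, had 5 regions with 0 WT-only, while Ucp3 alone had 10 with 2 and Ucp2 alone had 9 with 2, and 11.5% of 21631 genes had at least 2.

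In bulk tissue, fewer nuclei with an open site and a site less open in each nucleus cannot be told apart. Start sites of all 10 cardiomyocyte markers, among them Myh6, Tnnt2 and Ttn, were called in each library, where 53.6% and 54.5% of all annotated protein-coding starts were called in edKO 1 and edKO 2, against 56% and 57.3% in WT 1 and WT 2. Of all 38861 regions within 5 kb of protein-coding genes, 54% and 52.9% were called in edKO 1 and edKO 2, against 68.2% and 74.5% in WT 1 and WT 2. Of the 90 regions within 5 kb of the cardiomyocyte markers, 47 and 56 were called in edKO 1 and edKO 2, against 55 and 63 in WT 1 and WT 2. Of 6 leukocyte markers with an annotated start, 0 were called in any library, although of 13 regions within 5 kb of the 10 leukocyte genes 6 and 8 were called in edKO 1 and edKO 2, against 9 and 10 in WT 1 and WT 2. Endothelial starts (Kdr, Tie1 and Egfl7, not Tek) were called for 3 of 4 genes in each library, and of 25 regions near the 6 endothelial genes 15 and 12 were called in edKO 1 and edKO 2, against 18 and 20 in WT 1 and WT 2. Fibroblast starts were called for 1 and 1 of 3 genes in edKO 1 and edKO 2, against 2 and 3 of 3 in WT 1 and WT 2, and of 9 regions near the 5 fibroblast genes 5 and 5 were called in edKO 1 and edKO 2, against 6 and 7 in WT 1 and WT 2. Erythroid starts were called for 1 and 2 of 5 in edKO 1 and edKO 2, against 1 and 2 of 5 in WT 1 and WT 2. The skeletal muscle starts of Myog and Myf5 and the brown fat starts of Ucp1 and Adipoq had no call, while Ckm, Prdm16 and Pparg were called in all 4. Of 7 regions near the skeletal muscle genes 4 and 4 were called in edKO 1 and edKO 2, against 6 and 7 in WT 1 and WT 2. For 32 regions near the brown fat genes the counts were 14 and 11, against 23 and 21. For 4 regions near the erythroid genes they were 3 and 4, against 3 and 4. Regions near leukocyte, endothelial, fibroblast, skeletal muscle and brown fat genes were thus called less in edKO hearts, as were regions near protein-coding genes as a whole. The part of other cell types in the results was not tested.

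Within the uncoupling protein family, Ucp3 was the only gene with a WT-only region when gene bodies were extended by 5 kb. In the family (Ucp1, Ucp2, Ucp3, Slc25a14, Slc25a27 and Slc25a30) both WT hearts called 9 regions and 1 was WT-only (11.1%), against 16.6% for regions near all protein-coding genes. Ucp1, the heat-producing protein of brown fat, had no region in any library. Slc25a30, a kidney-enriched carrier, had 4 regions, of which 4 and 2 were called in edKO 1 and edKO 2, against 4 and 4 in WT 1 and WT 2. The adenine nucleotide carriers Slc25a4 and Slc25a5, which exchange ATP for ADP, had 0 WT-only regions of 6.

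Genes of PPAR-controlled fatty acid oxidation had 12 WT-only regions of 54 called in both WT hearts (22.2%, against 16.6%), spread over 10 of 23 genes, and 0 edKO-only regions of 29 (background 1.12%). The share of all protein-coding genes with a WT-only region within 5 kb was not computed. At the wider extension of 50 kb, 65.9% of all protein-coding genes had 0 WT-only regions. By strength the 12 WT-only regions were led by those near Angptl4, a lipoprotein lipase inhibitor, Cd36, a fatty acid transporter, Acaa2, a thiolase, Acot1, a thioesterase, Mlycd, which degrades malonyl-CoA, and Hadhb, a subunit of the trifunctional protein. The Mlycd region (chr8:119399300-119399687) had −log10 p of 25.1 and 27.6 in WT 1 and WT 2, and the Hadhb region (chr5:30170261-30170827) had 15.6 and 13.4. Genes of mitochondrial redox defence, among them Sod2, Gpx4 and Prdx3, had 0 WT-only regions of 15.

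The share of regions called in each of the 4 libraries served as a measure of likeness over the genes of these lists with at least 1 region, 39 of them beside Ucp3. Of these 39 genes, 23 came from the list of PPAR-controlled fatty acid oxidation. Among the nearest to Ucp3 by Euclidean distance were Acot1 (0.167), Pdk4, a kinase that inhibits pyruvate dehydrogenase (0.601), Hadhb (0.612) and Cd36 (0.637). For Ucp3 these shares were 0% and 0% in edKO 1 and edKO 2, against 50.0% and 100% in WT 1 and WT 2. Pdk4 differed from it in having edKO calls, with 33.3% and 33.3% in edKO 1 and edKO 2, against 66.7% and 66.7% in WT 1 and WT 2. Nearest to Ucp2 were Acadl, an acyl-CoA dehydrogenase (0.236), Slc25a30, Slc25a4 and the thioredoxin reductase Txnrd2 (0.373 each) and the fatty acid binding protein Fabp3 (0.442). These shares rest on 2 to 8 regions a gene, so many genes can tie, and they do not include the region 7.22 kb upstream of Ucp3.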

How the data were processed

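ATAC-seq peaks of 2 edKO and 2 WT hearts were analysed, each heart with its own deposited list. The submitters' processing notes name CASAVA, bcl2fastq and cutadapt, then Bowtie2 with SAMtools, then MACS2, and the builds mm10 and GRCm38. Tool versions, the shift for Tn5 and the treatment of duplicates are not stated there. Each of the authors' deposited lists gives a fold enrichment (a ratio to local background), the −log10 p-value and −log10 q-value of the summit, its position and a score. The score follows the −log10 p, times 10, and was not used.

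The fold and −log10 p of each peak were solved together for a whole-number pileup under a Poisson tail, within 0.001 in −log10 p for 99.98% or more of each list. WT-only means called in both WT hearts and neither edKO heart, and edKO-only the reverse. Group values were compared with an exact two-sided permutation test over the 4 libraries. Percentiles are the share of peaks or regions with an equal or lower −log10 p. Gene positions, start sites and promoter sequences came from RefSeq tables of GRCm38.p6, with 21631 protein-coding genes on chromosomes 1 to 19 and X. Genes from fixed lists were named if they had a WT-only or edKO-only region within 5 kb of the gene body, at most 6 per list by strength. One gene among those nearest to Ucp3 is not reported here. Members, lists and tests were chosen with earlier results of these data known. Merging and solving were tested on simulated data. Computation used Python 3.11.15, NumPy 2.4.6 and SciPy 1.17.1.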

Additional observations from a re-analysis of the deposited data

How the results depend on the processing

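The difference in regions called stayed negative, with a lower mean in edKO, in all 12 alternatives tried, and that in bases covered in all 10, but with 2 hearts against 2 none could give an exact p below 0.333. With lists of equal length, however, edKO 1 called more regions than either WT heart. With a replicate block, pairing edKO 1 with WT 1 and edKO 2 with WT 2, the differences were −3 regions and −1569 bases (exact p = 0.5 each, the smallest p it allows). The labels do not say that equal numbers mark a shared litter, and the deviations of equally numbered libraries had a correlation of −0.0232 over 16568 regions. Gene bodies extended by 10 kb left 1 WT-only region, 100 kb gave 5 regions called in all 4 libraries, and a minimum −log10 p of 10 in the lists left 1 such region. Without each library in turn there were 2 to 4 WT-only and 0 to 1 edKO-only regions. The percentile difference upstream of Ucp3 was −85.1 within each library's own list, −64.5 by fold enrichment and −84.0 to −79.8 without each library in turn; these alternatives were chosen after seeing the data. A weak site can miss the authors' threshold in a library of lower enrichment such as edKO 2, so single missing calls at low pileup say little.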

Other observations

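The regions next to the one upstream of Ucp3 in the order of percentile difference, named after their values had been seen, included 1 over Scd4, a stearoyl-CoA desaturase (chr19:44332575-44333550), at −55.8 points, edKO minus WT. Others lay over Pecam1, an adhesion protein of endothelial cells (chr11:106677791-106678395, −53.2 points), over Tbc1d1, a regulator of glucose transporter traffic (chr5:64326276-64326879, −51.6 points), and over Rarb, a retinoic acid receptor (chr14:16575218-16575854, −49.4 points). Between these in order were regions over Pde7b (−52.0 points) and Ywhag (−49.8 points). Regions at −68.1, −63.4 and −50.3 points overlapped no gene, and a common theme among the regions in this order was not tested. All were called in each of the 4 libraries, so a count of missing calls does not show them. Around Ucp1, extended by 50 kb, 3 regions were present, called 1 and 3 times in edKO 1 and edKO 2, against 2 and 2 times in WT 1 and WT 2.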
